A study of Caenorhabditis elegans with 24 samples.

Results

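The comparison set 3 samples of worms that ate freely on bacteria for TOR RNA interference (RNAi) against 5 samples of worms that were fasted for 48 h on control RNAi bacteria, 8 of the 24 arrays of the series, chosen by their sample titles. It asks which parts of the fasted state were present in worms that had food and a partly lowered TOR transcript. All samples were whole wild-type (N2) Caenorhabditis elegans, grown at 20 °C and collected at day 4 of adulthood, and labelled RNA from each was hybridised to its own Affymetrix C. elegans Genome Array. The 5 samples of freely fed worms on control RNAi served as the common baseline, and the 4 samples of freely fed worms on Rheb RNAi as a second RNAi treatment. Both the RNAi plate and the food differed between the fed TOR RNAi and fasted control worms, so the effect of each cannot be read from that comparison alone. The series design speaks of independent experiments and the titles of biological replicates.

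RNAi by feeding lowers a transcript in worms that eat bacteria making the matching double-stranded RNA. TOR, the product of let-363, is a kinase that couples amino acids and growth factor signals to protein synthesis and growth and restrains autophagy, and Rheb is the small GTPase that switches it on. A fasted worm stops receiving those nutrients and burns stored fat in mitochondria and peroxisomes. Insulin-like peptides act beside TOR: when they fall, the transcription factor DAF-16 enters nuclei and raises stress and survival genes.

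The targeted gene was low in each fed TOR RNAi sample. The log2 level of let-363 was 7.72, 7.74 and 7.87 in fed TOR RNAi worms, against 9.27, 9.49, 9.14, 9.18 and 9.21 in fasted control worms. The groups did not overlap, and the log2 difference was -1.48 ± 0.14 (standard error of the limma fit, adjusted p = 6e-08). Its other probe set showed a log2 difference of -1.95. Both probe sets had a two-sided exact permutation p of 0.0179, the smallest that 3 against 5 arrays allow. The level of rheb-1 did not differ by the test (log2 difference 0.23 ± 0.26, adjusted p = 0.56). Which part of let-363 the bacteria targeted was not analysed here.

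Median deposited intensities of the arrays were 53 to 58 in fed TOR RNAi worms and 48 to 54 in fasted control worms. Correlations between arrays of a group were 0.985 to 0.989 for fed TOR RNAi and 0.971 to 0.989 for fasted control. RNAs of bioB, bioC, bioD and cre, which are added to every array, differed between the 2 groups by -0.39 to 0.23 on the log2 scale over 18 probe sets, so differences of that size can be technical. Worms were measured whole, so fewer cells of a type and less RNA per cell cannot be told apart in any result that follows.

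Of 12277 genes tested, 2740 (22.3%) differed between fed TOR RNAi and fasted control worms at a Benjamini-Hochberg adjusted p under 0.05, the rule for a call throughout. Of these, 1553 (12.65%) were higher and 1187 (9.67%) lower in fed TOR RNAi worms, 1232 differed at least 2-fold, and 2328 had no overlap between the 2 groups. Centring each array on its median gave 1318 higher and 1577 lower, with the median of all genes at -0.10 in place of -0.01 on the log2 scale. The direction of the majority therefore depended on the scaling. For 8637 genes (70.4%) the 95% interval of the difference lay within 2-fold. Fed TOR RNAi array 3 carried many calls: without it 1751 genes were called.

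2 further comparisons place these differences. Fasted control against fed control worms gave 2322 called genes (18.9%), 1351 higher (11%) and 971 lower (7.91%), and 3883 calls (2345 higher, 1538 lower) when replicate numbers, which pair these samples, were a block. Fed TOR RNAi against fed control worms gave 4087 called genes (33.3%), 2437 higher (19.9%) and 1650 lower (13.4%). After median centring 923 rose and 1227 fell with fasting, and 1628 rose and 2923 fell with TOR RNAi. The comparisons share arrays: each fasted control array enters the direct comparison and the fasting comparison, and each fed TOR RNAi array the direct one and the knockdown one. Their values are therefore given side by side and not correlated.

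Of 379 genes that rose at least 2-fold with fasting, 101 were within 2-fold of the fasted level in fed TOR RNAi worms by the 95% interval, and 53 were called lower than the fasted level while lying within 2-fold of fed control worms. Of 493 genes that fell at least 2-fold with fasting, 71 were within 2-fold of the fasted level and 126 were called higher than it while within 2-fold of fed control. The first group is called reached and the other not reached below. Without the limit on fed control, 108 of the 379 were called lower than the fasted level and 289 of the 493 higher. Another 28 and 30 were called beyond the fasted level. Neither reached nor called in the direct comparison were 143 of the risen and 106 of the fallen genes. When single arrays were left out, reached counts ranged from 67 to 139 for risen and 50 to 75 for fallen genes, and not reached counts from 37 to 64 and from 81 to 141. With replicate numbers as a block, reached counts were 135 and 87, and not reached counts 59 and 150. Those numbers did not pair fed TOR RNAi with fasted control arrays. The genes named from each group are the 8 with the largest fasting change in each direction.

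The largest reached rise was that of C33A12.4. Its log2 level was 10.201, 9.989 and 9.895 in fed TOR RNAi worms, against 10.193, 9.890, 10.135, 10.542 and 10.447 in fasted control worms, and 6.73 to 7.56 in fed control worms. The first 2 groups overlapped and both lay above every fed control array. The direct log2 difference was -0.21 (95% interval -0.65 to 0.23), while the change with fasting was 2.91 ± 0.18. The other reached rises were C54F6.20, cup-16, F41G4.8, pitr-4, which encodes a phosphate transporter of the PiT family, scl-2, which encodes a secreted SCP-like protein, C46H11.2 and srap-1. Their fasting changes ran from 1.79 for srap-1 to 2.15 for C54F6.20 on the log2 scale, and their direct differences from -0.43 for C54F6.20 to 0.48 for cup-16.

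Among the reached falls, F46F2.3 had log2 levels of 5.64, 5.43 and 5.51 in fed TOR RNAi worms, against 5.79, 5.48, 5.50, 5.92 and 5.37 in fasted control worms. Fed control worms stood at 9.61 to 10.69, far above both, with a fasting change of -4.76 ± 0.17 and a knockdown change of -4.85 ± 0.20. hen-1, which encodes a secreted protein used in sensory integration and learning, averaged 6.03 ± 0.42 in fed TOR RNAi worms (SD, n = 3), 5.88 ± 0.48 in fasted control worms and 9.02 ± 0.49 in fed control worms (SD, n = 5 each). F42A8.1, ora-1, F09C8.1, R07E5.4 and cld-9, a claudin-like gene, behaved alike, with direct log2 differences from -0.22 for R07E5.4 to 0.39 for cld-9. The acid sphingomyelinase gene asm-3 was also within 2-fold, but both its averages, 3.27 in fed TOR RNAi and 3.52 in fasted control worms, were under a log2 level of 4, where levels are hard to measure.

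**Figure D1:**
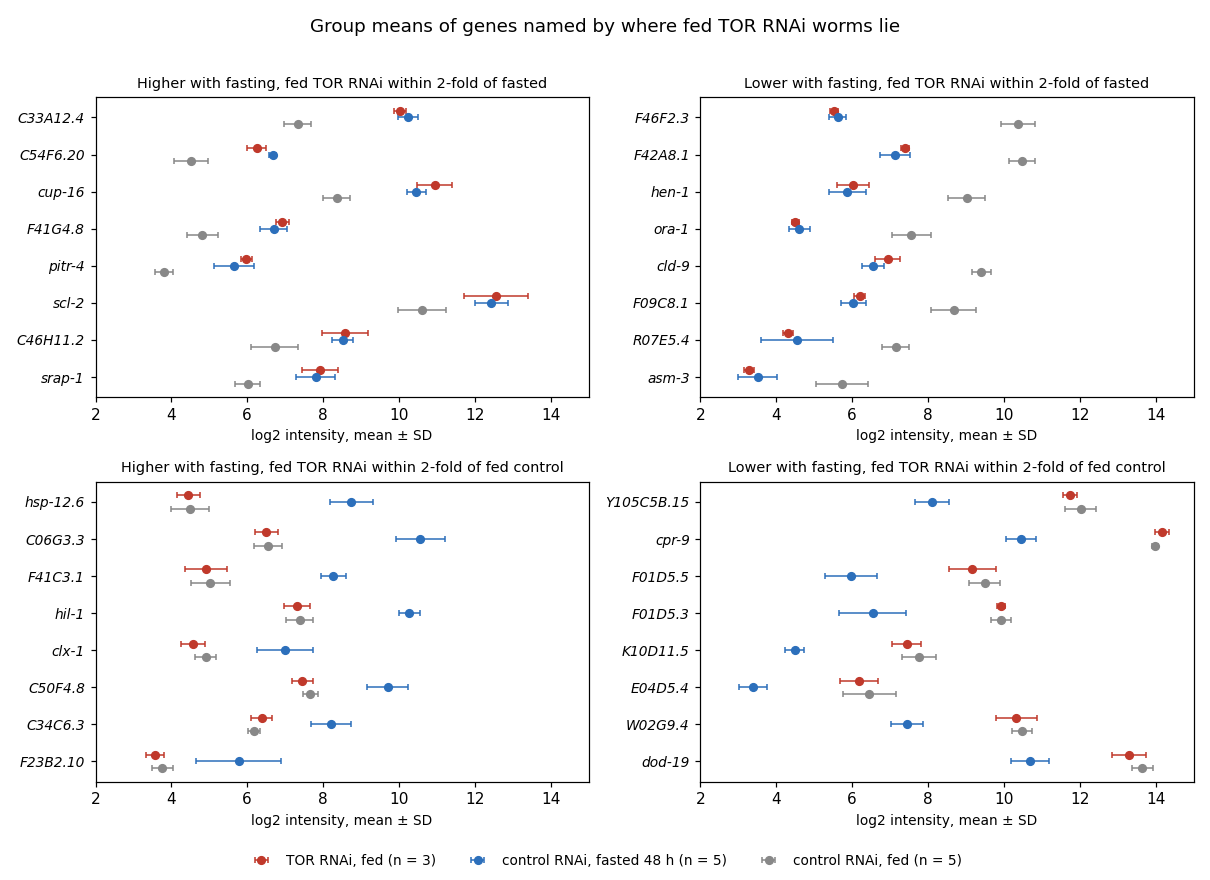
Group means of log2 intensity (x axis) with SD as bars, for fed TOR RNAi (n = 3), fasted control (n = 5) and fed control (n = 5). In the upper panels fed TOR RNAi points lie beside fasted control and away from fed control, as C33A12.4 and F46F2.3 show, while in the lower panels they lie beside fed control, as hsp-12.6 and cpr-9 show; the panels hold the genes that the rule selects for those positions.

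Several gene groups moved in the same direction in both states, and the median direct difference of each was small. Cuticle collagens, which build the worm's outer coat, had 3 of 105 measured genes higher and 13 lower in fed TOR RNAi than in fasted control worms, with a median log2 difference of -0.22 and 15.2% of the list called, beside 22.3% of all genes. Both states were low against fed control worms: 51 of the 105 fell and 1 rose with fasting (median -0.46), and 64 fell and 2 rose with TOR RNAi (median -0.63). The 13 became 7 without fed TOR RNAi array 2 and 8 without probe sets that can bind several transcripts. Leaving out those probe sets also gave 21 in place of the 51 and 31 in place of the 64, and the 64 were 39 when a log2 level above 6 on at least 3 arrays was required. Fed TOR RNAi worms were below the fasted level for some adult collagens. The log2 level of col-19, an adult collagen, was 6.562, 6.037 and 6.966 in fed TOR RNAi worms, against 8.502, 7.988, 8.689, 8.235 and 8.261 in fasted control worms, with no overlap, and 9.47 to 10.14 in fed control worms. The direct log2 differences were -1.81 ± 0.28 for col-19, -1.23 ± 0.28 for col-101 and -2.12 ± 0.41 for col-106 (adjusted p = 6.1e-05, 0.0026 and 0.00066).

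The mitochondrial respiratory chain and ATP synthase, which turn electrons from fuel into ATP, had 2 of 51 genes higher and 6 lower in fed TOR RNAi than in fasted control worms, a median log2 difference of -0.05, and 45 genes within 2-fold by the interval. With fasting 27 of the 51 rose and 1 fell (median 0.33), and with TOR RNAi 22 rose and 2 fell (median 0.30). Median centring left 13 of the 27 and 4 of the 22, so these rises depended on the scaling. Leaving out fed TOR RNAi array 2 or 3 reduced the 22 to 14 or 12, and the 6 direct falls were 3 without array 2. In the direct comparison 15.7% of the list was called, beside 22.3% of all genes. Among the members that were lower in fed TOR RNAi worms were gas-1 of complex I (log2 difference -0.59 ± 0.12), ucr-2.2 of complex III (-0.57 ± 0.13) and asb-2 of the ATP synthase (-0.93 ± 0.25). The call of asb-2 was lost without fed TOR RNAi array 2. The assembly factor gene cox-11 was higher (0.63 ± 0.18), a call also lost without array 2.

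Nuclear hormone receptors, transcription factors of which worms have a large family, had 17 of 165 measured genes higher and 4 lower in fed TOR RNAi than in fasted control worms. The median log2 difference was 0.09, and 137 genes were within 2-fold by the interval. Of the list 12.7% was called, beside 22.3% of all genes. With fasting 25 rose and 2 fell (median 0.20), and with TOR RNAi 57 rose and 2 fell (median 0.29). Among all genes tested 11% rose and 7.91% fell with fasting, and 19.9% rose and 13.4% fell with TOR RNAi. Without fed TOR RNAi array 3 the 17 were 10 and the 57 were 28, and median centring gave 10 direct falls in place of 4. The 25 were 51 with the replicate block, 14 after median centring and 14 to 16 without fasted control array 4 or 5 or fed control array 1, 2 or 3. nhr-3 was higher in fed TOR RNAi than in fasted control worms (1.40 ± 0.24), and its fasting change of 0.15 ± 0.21 was not called.

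Other genes that fasting raised were not reached, by the rule that chose them. The small heat shock gene hsp-12.6 had log2 levels of 4.17, 4.42 and 4.76 in fed TOR RNAi worms, against 8.34, 8.06, 8.74, 9.42 and 9.16 in fasted control worms. The groups were far apart, and the fed control range of 3.80 to 5.08 enclosed the fed TOR RNAi arrays. The direct log2 difference was -4.29 ± 0.35 (adjusted p = 8.7e-09), with a fasting change of 4.25 ± 0.30 and a knockdown change of -0.05 ± 0.35. T22F3.11 showed the largest direct fall, with log2 levels of 3.88, 5.42 and 4.00 in fed TOR RNAi worms, against 9.23, 9.39, 10.60, 11.85 and 12.53 in fasted control worms. Its log2 difference was -6.29 ± 0.73 (adjusted p = 1.6e-06), and fed control worms ranged from 3.88 to 5.36. hil-1, which encodes a linker histone, was not reached either (direct log2 difference -2.97 ± 0.24, fasting change 2.89 ± 0.20). C06G3.3, F41C3.1, clx-1, C50F4.8 and C34C6.3 made up the list, with direct log2 differences from -4.06 for C06G3.3 to -1.83 for C34C6.3, together with F23B2.10, which was 1.78 lower with values below 4 set to 4.

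Of 21 measured genes known to be raised by DAF-16, 13 were lower and 1 higher in fed TOR RNAi than in fasted control worms, with a median log2 difference of -0.98 beside -0.01 for all genes. That is 66.7% of the list called, beside 22.3% of all genes. With fasting 13 rose and 2 fell (median 0.79), and with TOR RNAi 3 rose and 4 fell (median -0.08). Some of these genes lay below even fed control worms. The log2 level of the metallothionein gene mtl-1 was 7.69, 9.64 and 11.40 in fed TOR RNAi worms, against 14.28, 14.04, 14.45, 14.64 and 14.43 in fasted control worms, and 12.15 to 13.75 in fed control worms. The 3 fed TOR RNAi arrays were far apart but all below both control groups, with a direct log2 difference of -4.79 ± 0.71 that became -3.85 without array 1 and -5.70 without array 3. The superoxide dismutase gene sod-3 had log2 levels of 5.25, 5.12 and 5.65 in fed TOR RNAi worms, against 6.49 to 7.30 in fasted control and 6.17 to 6.41 in fed control worms. Its direct log2 difference was -1.52 ± 0.20 (adjusted p = 5.1e-06) and its knockdown change -0.90 ± 0.20. The transhydrogenase gene nnt-1 was also below both, with a direct log2 difference of -2.35 ± 0.19 and a knockdown change of -1.47 ± 0.19. The 1 member that was higher, the lysozyme gene lys-8, fell with fasting (-1.94 ± 0.18) while its change with TOR RNAi was not called (-0.20 ± 0.21). The level of daf-16 itself showed no called difference (log2 0.06, 95% interval -0.49 to 0.61).

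**Figure D2:**
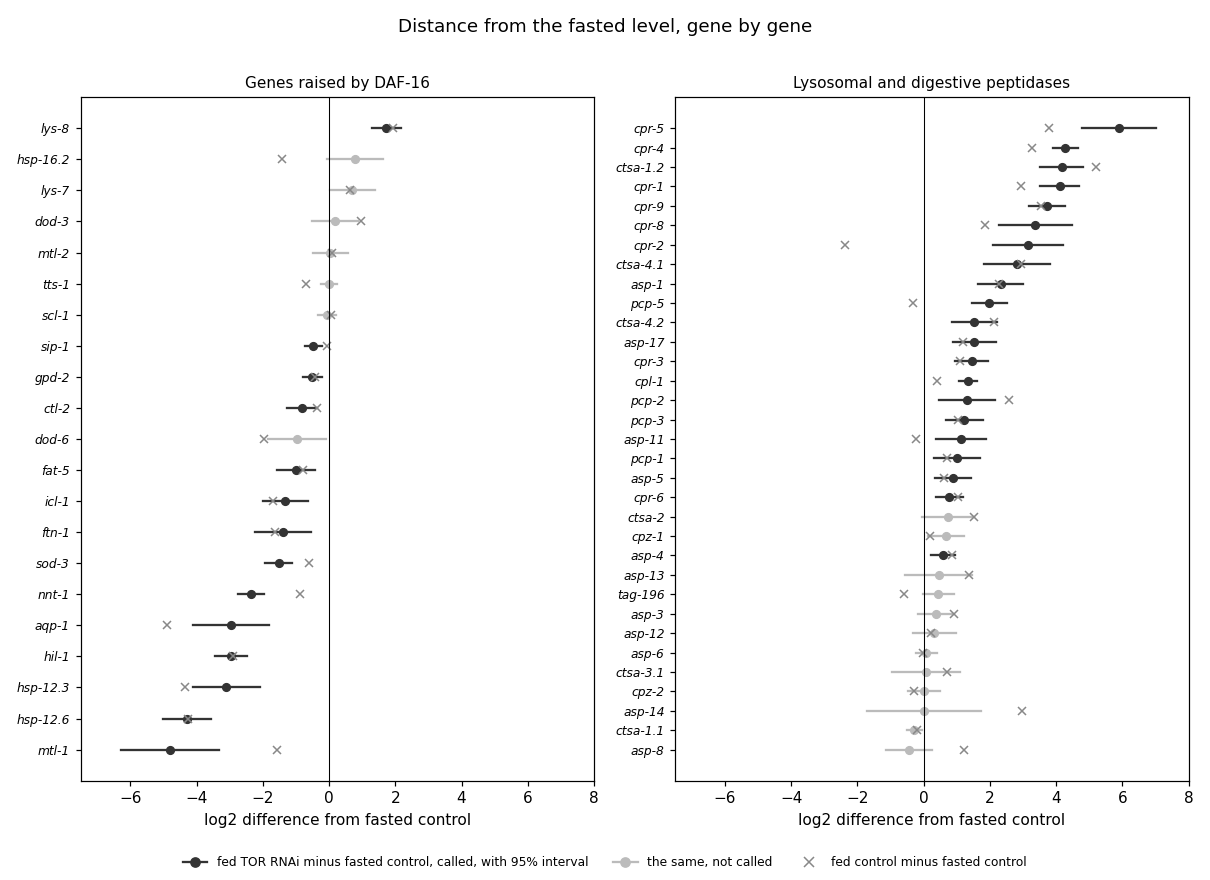
Log2 difference from fasted control worms (x axis) for measured DAF-16-raised genes (left) and lysosomal and digestive peptidases (right), circles for fed TOR RNAi with 95% intervals, dark where called, and crosses for fed control. Most DAF-16-raised genes lie left of 0, down to mtl-1 at -4.79, and most peptidases right of 0, up to cpr-5 at 5.90.

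The next 5 single genes, all raised by fasting, stood between the fed and the fasted level in their means. They are examples, and other genes named below did so too. acs-2, an acyl-CoA synthetase gene that delivers fatty acids to mitochondrial beta-oxidation, had log2 levels of 8.17, 9.19 and 10.84 in fed TOR RNAi worms, against 12.48, 12.09, 13.28, 13.35 and 13.31 in fasted control worms. Fed control worms ranged from 5.43 to 7.48, so the 3 groups did not overlap. The direct log2 difference was -3.50 ± 0.51, which became -2.88 without fed TOR RNAi array 1 and -4.22 without array 3; the fasting change was 6.78 ± 0.44 and the knockdown change 3.28 ± 0.51.

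The intestinal aquaglyceroporin gene aqp-1 had log2 levels of 7.37, 9.38 and 9.85 in fed TOR RNAi worms, against 11.34 to 12.35 in fasted control and 5.96 to 8.31 in fed control worms. It lay below every fasted array and overlapped with the fed ones, with a direct log2 difference of -2.96 ± 0.55 (-2.21 without fed TOR RNAi array 1) and a knockdown change of 1.93 ± 0.55. The alcohol dehydrogenase gene adh-1 showed a direct difference of -3.97 ± 0.50 (-3.35 without array 1) beside a fasting change of 5.29 ± 0.43 and a knockdown change of 1.32 ± 0.50. The fatty acid and retinol binding protein gene far-7 showed -2.80 ± 0.47, 4.48 ± 0.41 and 1.68 ± 0.47 in the same order. hsp-12.3 averaged 7.84 in fed TOR RNAi worms, against 10.95 in fasted control worms (a log2 difference of -3.94 without array 3), and its knockdown change of 1.25 ± 0.49 was not called. In each of these 5 genes fed TOR RNAi array 1 was the lowest of its group and array 3 the highest.

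Taken as lists, the enzymes of fat use did not move together. Of 47 acyl-CoA synthetase and mitochondrial beta-oxidation genes, 6 were higher and 8 lower in fed TOR RNAi than in fasted control worms (median log2 difference -0.03). acs-1 (2.41 ± 0.19) and acs-14 (2.11 ± 0.20) were higher and ech-7, an enoyl-CoA hydratase gene, lower (-2.51 ± 0.34). Of 21 peroxisomal genes 7 were higher and 3 lower (median 0.30), among them the acyl-CoA oxidase genes acox-1.5 (3.26 ± 0.25) and acox-1.1 (0.88 ± 0.17) and prx-11 (2.25 ± 0.22), a gene of peroxisome formation. Of these, acox-1.5 and prx-11 fell with fasting, by 2.39 and 1.05 on the log2 scale. Of 12 lipase and fat droplet genes 5 were higher and 2 lower. The 5 became 2 without fed TOR RNAi array 2 and 3 without array 3. The shares called were 29.8%, 47.6% and 58.3% of these 47, 21 and 12 genes, beside 22.3% of all genes. Among all genes 12.65% were higher and 9.67% lower. lipl-4, a lysosomal lipase gene, rose with fasting (2.14 ± 0.27) and not with TOR RNAi (-0.59 ± 0.31, not called), giving a direct log2 difference of -2.72 ± 0.31. lipl-7 (2.05 ± 0.26) was higher in fed TOR RNAi worms.

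Most called genes of sugar use, and of sugar and fat making, were lower under TOR RNAi than in fasted worms. The gluconeogenic enzyme gene pck-2 had log2 levels of 11.60, 11.59 and 11.99 in fed TOR RNAi worms, against 13.26, 13.06, 13.60, 13.57 and 13.45 in fasted control worms, without overlap. Its direct log2 difference was -1.66 ± 0.14 (adjusted p = 1.7e-08), and it lay below fed control worms too (-0.58 ± 0.14). Of 14 genes listed for gluconeogenesis, trehalose and the glyoxylate shunt, 5 were lower and 2 higher (median -0.48), and the 5 were 3 without fed TOR RNAi array 1. The channel gene aqp-1, named above, is on this list and among the 5. Both that were higher were trehalase genes, tre-2 (1.19 ± 0.13) and tre-3 (1.09 ± 0.26). Of 41 genes of glycolysis and the citric acid cycle, 11 were lower and 1 higher (median -0.28), and 11 rose with fasting (7 without fed control array 3 and 6 after median centring); the direct falls were 7 without fed TOR RNAi array 2, 6 without array 3 and 4 without probe sets that can bind several transcripts. aldo-2, an aldolase gene, fell by 0.86 and cts-1, the citrate synthase gene, by 0.67 on the log2 scale. Calls covered 50% of the 14 genes and 29.3% of the 41, beside 22.3% of all genes.

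Of 21 genes that build, desaturate or elongate fatty acids, 6 were lower and 2 higher in fed TOR RNAi than in fasted control worms (median log2 difference -0.33), and the 6 were 2 without fed TOR RNAi array 1 or array 2. That is 38.1% of the list called, beside 22.3% of all genes. pod-2, the acetyl-CoA carboxylase gene that starts fatty acid synthesis, had a direct log2 difference of -1.70 ± 0.32. The stearoyl-CoA desaturase gene fat-7 fell with fasting (-1.74 ± 0.42) and showed 0.69 with a 95% interval of -0.31 to 1.69 in the direct comparison, which was not called. nhr-49, a nuclear receptor gene of the fasting response in worms, was not called (0.29, 95% interval -0.05 to 0.64).

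Digestive enzymes set fed TOR RNAi worms apart from fasted ones. Of 33 measured lysosomal and digestive peptidase genes, 21 were higher in fed TOR RNAi than in fasted control worms and 0 lower, with a median log2 difference of 1.13. The share called was 63.6%, beside 22.3% of all genes. With fasting 21 of the 33 fell and 2 rose (median -1.04), while with TOR RNAi 9 rose and 4 fell (median 0.18). The cathepsin B-like gene cpr-4 had log2 levels of 14.65, 14.43 and 14.63 in fed TOR RNAi worms, against 10.37, 10.36, 9.99, 10.01 and 10.72 in fasted control worms. The groups were widely separated, and fed control worms, at 13.09 to 13.73, lay between them. The direct log2 difference was 4.28 ± 0.18 (adjusted p = 8.9e-14), with a fasting change of -3.26 ± 0.15 and a knockdown change of 1.02 ± 0.18.

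cpr-1 moved in the same way (direct log2 difference 4.11 ± 0.28, fasting -2.95 ± 0.25, knockdown 1.17 ± 0.28), as did cpr-5 (5.90 ± 0.54, -3.78 ± 0.47 and 2.12 ± 0.54). cpr-9 kept its fed level under TOR RNAi. Its log2 levels were 14.03, 14.10 and 14.39 in fed TOR RNAi worms, against 10.89, 10.63, 10.67, 10.14 and 9.92 in fasted control worms and 13.91 to 14.08 in fed control worms. ctsa-1.2, a cathepsin A-like gene, was 4.16 ± 0.31 above the fasted level and 1.05 ± 0.31 below the fed level on the log2 scale. cpr-2 rose in both states and further with TOR RNAi: its log2 level was 10.81, 8.17 and 10.84 in fed TOR RNAi worms, against 6.48 to 7.34 in fasted control and 4.08 to 4.79 in fed control worms.

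Lysozymes and saposins, small proteins that break bacterial walls and membranes, had 20 of 28 measured genes higher and 4 lower (median log2 difference 1.31). That is 85.7% of the list called, beside 22.3% of all genes. 12 of the 28 fell and 4 rose with fasting (median -0.59). lys-4 had log2 levels of 12.09, 12.94 and 13.13 in fed TOR RNAi worms, against 9.91, 10.09, 10.28, 9.76 and 9.78 in fasted control worms, a log2 difference of 2.76 ± 0.29 with no overlap. spp-12 (4.07 ± 0.44) and the invertebrate-type lysozyme gene ilys-5 (3.15 ± 0.37) were also higher, although ilys-5 lay 2.38 below fed control worms. spp-27 went the other way, being 3.63 lower in fed TOR RNAi worms. ilys-3 is an exception in this group: it rose with fasting (4.90 ± 0.38) and with TOR RNAi (6.29 ± 0.44), and its direct difference of 1.39 ± 0.44 lost its call in 5 of 19 alternatives, among them the omission of fed TOR RNAi array 2 or 3 or fasted control array 2 or 4.

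ins-7, an insulin-like peptide gene expressed in the intestine whose product activates the worm's insulin receptor, showed the largest direct rise. Its log2 level was 12.74, 12.65 and 12.64 in fed TOR RNAi worms, against 6.71, 5.93, 5.92, 6.55 and 7.62 in fasted control worms. Every fed TOR RNAi array lay above the fed control range of 10.57 to 11.40, and every fasted array below it. The direct log2 difference was 6.13 ± 0.31 (95% interval 5.48 to 6.78, adjusted p = 4.2e-12), the fasting change -4.42 ± 0.27 and the knockdown change 1.72 ± 0.31.

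ins-7 is also 1 of 9 measured genes known to be lowered by DAF-16, of which 6 were higher and 0 lower in fed TOR RNAi than in fasted control worms (median log2 difference 1.64), 8 fell with fasting (median -2.95), and 2 rose and 4 fell with TOR RNAi (median -0.35). dod-19 had log2 levels of 13.73, 12.82 and 13.35 in fed TOR RNAi worms, against 10.88, 10.28, 11.41, 10.17 and 10.72 in fasted control worms and 13.34 to 13.97 in fed control worms, so it was close to its fed level. dod-23 (2.17 ± 0.28) and asah-1, an acid ceramidase gene (1.64 ± 0.30), were higher too. Calls covered 66.7% of the 9 genes, beside 22.3% of all genes.

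Infection response genes were low in both states. Of 28 measured, 7 were higher and 3 lower in fed TOR RNAi than in fasted control worms (median log2 difference 0.44), 18 fell and 3 rose with fasting (median -1.97), and 16 fell and 3 rose with TOR RNAi (median -1.26). irg-8 shows the pattern, with a direct difference of 2.92 ± 0.37, a fasting change of -4.96 ± 0.32 and a knockdown change of -2.04 ± 0.37 on the log2 scale. sysm-1 did not follow it: its log2 level was 13.76, 12.74 and 13.17 in fed TOR RNAi worms, against 7.31, 7.42, 8.62, 7.19 and 7.37 in fasted control worms, and 13.22 to 14.10 in fed control worms. The direct difference was 5.64 ± 0.45 and the knockdown change of -0.41 ± 0.45 was not called. Of 99 C-type lectin genes, which encode sugar-binding proteins of the gut and other tissues, 30 were higher and 5 lower (median 0.17), with clec-10 (3.26 ± 0.40) and clec-5 (3.29 ± 0.41) higher and clec-97 lower (-3.69 ± 0.47). Calls covered 35.7% of the infection response genes and 35.4% of the C-type lectin genes, beside 22.3% of all genes.

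F28H7.3, B0024.4 and cbl-1 were 4.87, 4.44 and 4.38 above the fasted level on the log2 scale and differed from fed control worms by -0.37, -0.03 and 0.59, none of them called. Y105C5B.15, F01D5.5, F01D5.3, K10D11.5, E04D5.4 and W02G9.4 completed the not reached falls, with direct log2 differences from 2.81 for E04D5.4 (2.18 with values below 4 set to 4) to 3.63 for Y105C5B.15. cyts-1 and pho-8, a phosphatase gene, fell with fasting and rose with TOR RNAi. They were 4.71 ± 0.35 and 4.66 ± 0.32 above the fasted level, the second 3.38 with values below 4 set to 4. In the other direction C35B1.4 (-5.73 ± 0.35), icmt-1, an isoprenylcysteine methyltransferase gene (-5.20 ± 0.38, and -4.68 with values below 4 set to 4), C23G10.11 (-4.97 ± 0.59) and F09E10.1 (-3.18 ± 0.30) rose with fasting and fell with TOR RNAi. In all, 94 genes of the first kind and 46 of the second met the rule of opposite called changes, which shares arrays between its comparisons. Without single arrays these were 58 to 94 and 31 to 47, the 58 without fed TOR RNAi array 3. With the replicate block they were 220 and 111. nspg-7.2 was 4.58 ± 0.43 above the fasted level (4.41 with values below 4 set to 4), where it averaged 3.90, and Y51H7C.1 was lower by 4.43 ± 0.39.

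**Figure D3:**
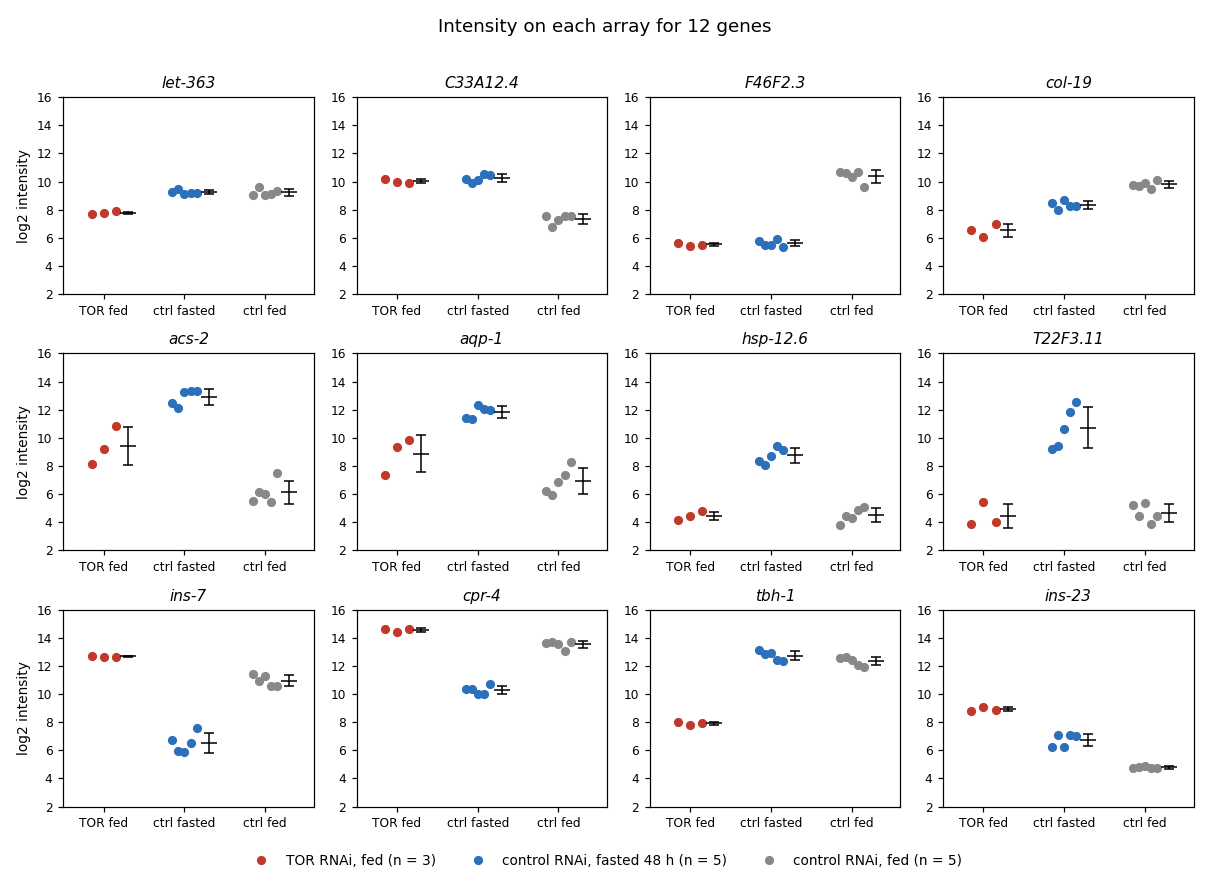
Log2 intensity (y axis) of every array for 12 genes, with fed TOR RNAi left (3 points), fasted control in the middle (5) and fed control right (5); bars give mean and SD. let-363 and tbh-1 are low in fed TOR RNAi alone, col-19 falls below both control groups, C33A12.4 and F46F2.3 match the fasted arrays, hsp-12.6 and T22F3.11 match the fed ones, acs-2 and aqp-1 lie between in their means, and ins-7 and cpr-4 lie above both control groups.

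Some genes changed with TOR RNAi and stayed within 2-fold with fasting: 737 such genes were higher and 615 lower in fed TOR RNAi worms than in both control groups. Without single arrays these counts were 429 to 816 and 305 to 730, and with median centring 538 and 960. With the replicate block they were 1793 and 1763. A fasting change within 2-fold could still be called, as for sod-3 (0.62 ± 0.17). This class can therefore share genes with the class of opposite changes and with the next one. tbh-1, the gene of the enzyme that makes octopamine, a transmitter linked to food shortage in worms, had log2 levels of 7.98, 7.80 and 7.95 in fed TOR RNAi worms, against 13.13, 12.87, 12.92, 12.44 and 12.35 in fasted control worms and 11.95 to 12.63 in fed control worms. The fed TOR RNAi arrays lay far below every array of both control groups. The direct log2 difference was -4.83 ± 0.18 (adjusted p = 3.9e-14), and the fasting change of 0.40 ± 0.16 was not called.

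F54F7.2 was as separate, with log2 levels of 5.91, 5.71 and 5.95 in fed TOR RNAi worms, against 11.78, 11.17, 11.58, 10.90 and 10.92 in fasted control worms (log2 difference -5.42 ± 0.22). C39D10.7, C17G1.2, ZK354.2 and C44B7.5 were lower by log2 differences from -3.90 for C39D10.7 to -3.05 for C44B7.5. The rises named by the same rule were ptr-22, a patched-related gene (3.19 ± 0.41), scl-18, whose product is SCP-like (7.31 in fed TOR RNAi worms, against 4.20 in fasted control worms, on average), the neprilysin-like peptidase gene nep-14 (3.09 ± 0.33, and 1.98 with values below 4 set to 4), btb-21 (2.79 ± 0.30, and 2.58 with values below 4 set to 4), oac-54 (2.77 ± 0.49, and 2.06 with values below 4 set to 4, or 2.01 without fed TOR RNAi array 3 and 3.77 without array 1) and C25H3.10 (2.68 ± 0.38).

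A further class went in the fasting direction and beyond: 98 were above and 71 below the fasted level with called changes of the same sign in both states. Without single arrays these counts were 45 to 115 and 47 to 76: the lowest of each came without fed TOR RNAi array 3, and the 98 were 57 to 65 without fasted control array 3, 4 or 5 or fed control array 3. Median centring gave 57 above and a larger number below, so which direction held more genes depended on the scaling. With the replicate block 589 were above and 242 below. ins-23, another insulin-like peptide gene, had log2 levels of 8.82, 9.09 and 8.88 in fed TOR RNAi worms, against 6.21, 7.06, 6.27, 7.10 and 7.02 in fasted control worms and 4.71 to 4.88 in fed control worms. The 3 groups were separate, with a 95% interval of the direct log2 difference of 1.63 to 2.76 (adjusted p = 3.4e-06). R07C12.1 (3.08 ± 0.37), otpl-6, an otopetrin-like gene (2.38 ± 0.39), and F19C7.2 (2.33 ± 0.22) did the same.

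Among genes that fell further, the genes pud-3 and pud-4 were lower by 3.05 ± 0.59 and 4.15 ± 0.58. The log2 level of pud-4 was 5.26, 7.26 and 6.90 in fed TOR RNAi worms, against 10.67, 9.79, 11.17, 10.78 and 10.70 in fasted control worms and 11.41 to 13.04 in fed control worms. No fed TOR RNAi array reached the fasted range. W10G11.2 fell by 2.83 on the log2 scale (2.26 with values below 4 set to 4), fipr-26 by 2.16 and Y12A6A.1 by 2.08.

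Secreted signals were higher under TOR RNAi. Of 79 measured neuropeptide genes, which encode short peptides that neurons release, 50 were higher in fed TOR RNAi than in fasted control worms and 0 lower, with a median log2 difference of 0.96. That is 63.3% of the list called, beside 22.3% of all genes. The 50 became 30 without fed TOR RNAi array 2 and 29 without array 3. With TOR RNAi 60 rose and 4 fell against fed control worms (median 1.47), and with fasting 22 rose and 3 fell (median 0.49), a count that was 38 with the replicate block, 8 without fasted control array 5, fed control array 2 or fed control array 3, 11 without fasted control array 4, 13 without fasted control array 1 and 14 after median centring. nlp-8 had log2 levels of 8.53, 8.37 and 8.62 in fed TOR RNAi worms, against 6.79, 6.04, 7.22, 7.49 and 7.30 in fasted control worms and 5.83 to 6.47 in fed control worms. The groups did not overlap (direct log2 difference 1.54 ± 0.30). nlp-16, nlp-64 and nlp-89 were higher by 1.77, 1.65 and 1.36.

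Of 21 insulin-like peptide genes 13 were higher and 0 lower (median log2 difference 1.13), and the 13 were 8 without fed TOR RNAi array 2. Calls covered 61.9% of the 21 genes, beside 22.3% of all genes. Besides ins-7 and ins-23, daf-28 (1.35 ± 0.24) and ins-5 (1.56 ± 0.28) were higher, 2 genes that did not change with fasting by the test (-0.10 ± 0.21 and -0.47 ± 0.24). Of 10 measured genes of insulin signalling 3 were lower and 0 higher, 30% called beside 22.3% of all genes. The 3 were akt-2 (-1.13 ± 0.24), ist-1, the gene of the receptor substrate (-0.93 ± 0.21), and pdk-1 (-0.73 ± 0.17). Of these, ist-1 and pdk-1 rose with fasting, by 0.77 and 0.55.

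Of 16 fatty acid and retinol binding protein genes 10 were higher and 3 lower (median log2 difference 0.82), and the 10 were 6 without fasted control array 2 or fed TOR RNAi array 3. lbp-3, whose product carries fatty acids, had log2 levels of 11.73, 11.42 and 11.72 in fed TOR RNAi worms, against 9.84, 9.81, 9.86, 10.04 and 10.76 in fasted control worms. The groups were separate (1.56 ± 0.19), while the fasting change was 0.04 ± 0.17. far-6 was higher by 1.48 ± 0.23 and lbp-2 by 0.80 ± 0.14. Calls covered 81.25% of the 16 genes, beside 22.3% of all genes. Of 5 vitellogenin genes, which encode yolk proteins, vit-1 was higher (1.67 ± 0.25) after a fall with fasting of 2.57 on the log2 scale. vit-2 was higher by 0.38 ± 0.13 (adjusted p = 0.047), a call that was lost in 10 of 19 alternatives.

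**Figure D4:**
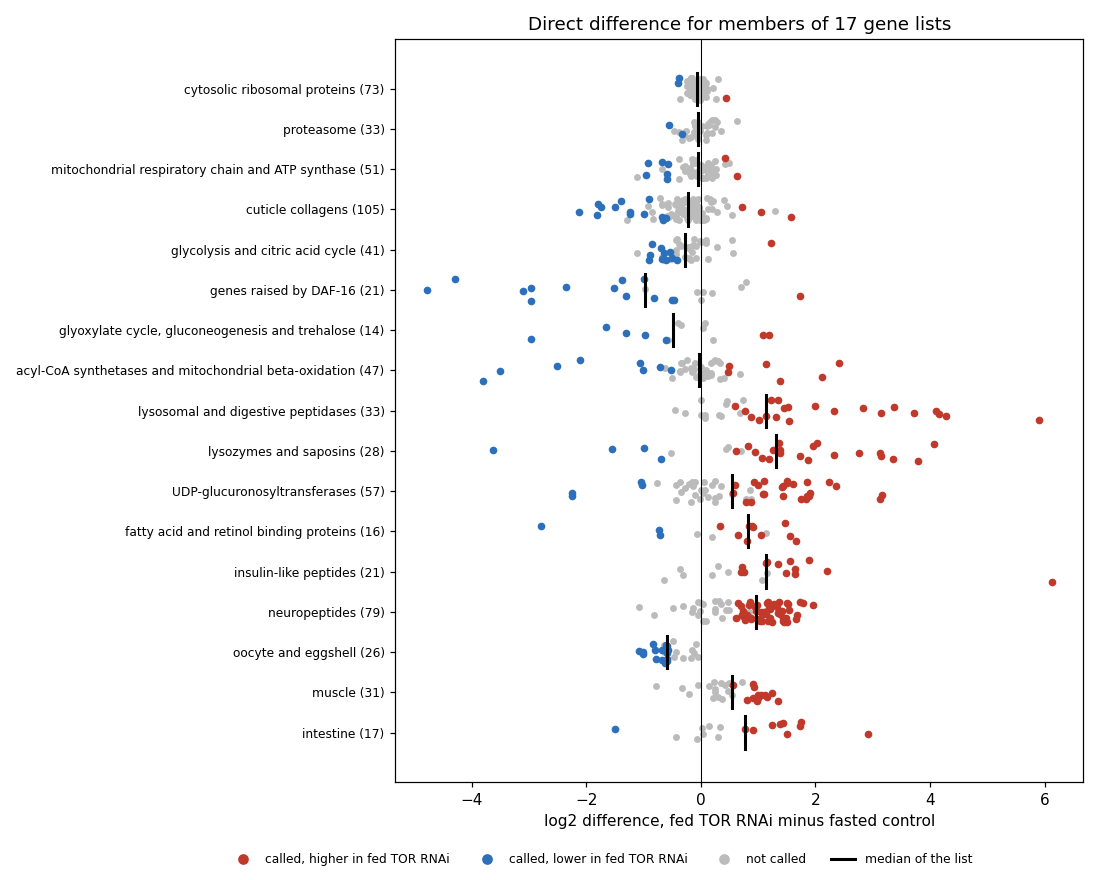
Log2 difference of fed TOR RNAi minus fasted control (x axis) for each measured member of 17 gene lists, with list sizes in brackets, coloured where called and grey otherwise, and a black bar at the median. Ribosomal proteins and the proteasome cluster at 0, DAF-16-raised genes have a median of -0.98, and peptidases, lysozymes, insulin-like peptides and neuropeptides have medians of 1.13, 1.31, 1.13 and 0.96.

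The machinery of growth differed little. All 73 measured cytosolic ribosomal protein genes were within 2-fold by the interval, and 3 were called: rps-20 was 0.44 higher, and rpl-28 and rpl-31 fell by 0.40 and 0.39 on the log2 scale. Each of these calls was lost in at least 1 alternative. Of 43 translation factor genes, 3 were higher and 1 lower, with 41 within 2-fold. Of 33 proteasome genes 0 were higher and 2 lower, with 32 within 2-fold. For comparison, 22.3% of all genes were called and 70.4% were within 2-fold by the interval. Of 35 genes of ribosome assembly and the exosome 11.4% were called, beside 22.3% of all genes. All were falls: 4 were lower and 0 higher, beside 9.67% of all genes lower. The largest of these was fib-1, which encodes fibrillarin of the nucleolus, with log2 levels of 12.21, 12.18 and 12.06 in fed TOR RNAi worms, against 12.97, 13.14, 12.91, 13.01 and 13.30 in fasted control worms (log2 difference -0.92 ± 0.12, adjusted p = 5.4e-06). The groups did not overlap, and fasting alone showed 0.16 ± 0.10, which was not called.

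Of 50 autophagy and vacuolar ATPase genes, whose products digest cell contents in acid vesicles, 5 were higher and 0 lower. That is 10% of the list, beside 12.65% of all genes higher, and 0 were higher after median centring. Leaving out any 1 of the fed TOR RNAi arrays or fasted control arrays 1, 2 or 3 left 1 to 3. vps-34, a lipid kinase gene of autophagy, was 0.44 ± 0.12 higher. In the TOR pathway 4 of 18 genes were lower, let-363 included, and 2 higher. The share called was 33.3%, beside 22.3% of all genes. rict-1, the Rictor gene of the second TOR complex, was lower (-0.87 ± 0.18, a call lost without probe sets that can bind several transcripts) and sgk-1, a kinase gene acting after that complex, higher (1.35 ± 0.24). Of 10 genes of the AMP-activated kinase, a sensor of low energy, aakg-4 rose with fasting (1.64 ± 0.16) and not with TOR RNAi (-0.22 ± 0.19, not called), so that its direct log2 difference was -1.87 ± 0.19. aakg-3 was higher (1.29 ± 0.34).

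Among 23 transcription factor genes of longevity and fasting, 6 were higher and 2 lower. The share called was 34.8%, beside 22.3% of all genes. Without fasted control array 2 or fed TOR RNAi array 1 or 3 the 6 were 2, and without fasted control array 4 or after median centring they were 3, as in a fit of the 2 groups alone and without probe sets that can bind several transcripts. mxl-3, which represses lipase genes in fed worms, was the clearest, with log2 levels of 10.58, 10.56 and 10.76 in fed TOR RNAi worms, against 8.53, 8.29, 9.10, 9.52 and 8.92 in fasted control worms (log2 difference 1.76 ± 0.23). The groups were apart, and fed control worms, at 8.53 to 9.25, overlapped with the fasted ones. elt-2, the intestinal GATA factor gene, was higher by 0.91 ± 0.20.

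Detoxification genes were above the fasted level more often than below. Of 57 UDP-glucuronosyltransferase genes, 25 were higher and 4 lower (median log2 difference 0.55), while with fasting 10 rose and 17 fell. ugt-18 had log2 levels of 8.950, 8.291 and 9.446 in fed TOR RNAi worms, against 5.144, 5.577, 6.113, 5.808 and 6.036 in fasted control worms, without overlap (3.16 ± 0.26). ugt-22 was at its fed level (direct difference 3.12 ± 0.29, knockdown change 0.31 ± 0.29, not called). Of 41 glutathione S-transferase genes, 12 were higher and 4 lower (median 0.26), the 12 falling to 6 without fed TOR RNAi array 3. gst-10 was 2.97 ± 0.34 higher, while gst-4 missed the threshold (1.04 ± 0.44, adjusted p = 0.092). Of 55 cytochrome P450 genes 14 were higher and 7 lower (median 0.10), and the 14 were 7 without fed TOR RNAi array 3, the 7 falls being 4 without array 2 and 11 after median centring. The shares called were 50.9%, 39.0% and 38.2% of these 57, 41 and 55 genes, beside 22.3% of all genes.

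Cell type markers moved with several of these groups. The summed level of 17 intestinal markers ran from 13.93 to 14.23 in fed TOR RNAi worms, against 13.39 to 14.09 in fasted control and 13.82 to 14.24 in fed control worms (log2 of the summed intensities of an array, as in the rest of this paragraph). Of these markers 9 were higher and 1 lower in the direct comparison (median log2 difference 0.76), and 5 were higher without probe sets that can bind several transcripts. The share called was 58.8%, beside 22.3% of all genes. The peptide transporter gene pept-1 (2.92 ± 0.55), the proton exchanger gene nhx-2 (1.75 ± 0.27) and pho-1 (1.74 ± 0.24) were higher, and the gut esterase gene ges-1 lower (-1.50 ± 0.25). The part of intestinal RNA in the results on peptidases, lysozymes and ins-7 was not tested.

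Oocyte and eggshell markers were 15 of 26 lower and 0 higher, with summed levels of 16.92 to 17.30 in fed TOR RNAi, 17.39 to 17.84 in fasted control and 17.62 to 17.93 in fed control worms. The median log2 difference was -0.59, and the 15 were 5 without fed TOR RNAi array 3, 8 in a fit of the 2 groups alone and 9 without probe sets that can bind several transcripts. Calls covered 57.7% of these 26 markers, beside 22.3% of all genes. rme-2, the yolk receptor gene, averaged 11.46 ± 0.37 in fed TOR RNAi worms (SD, n = 3), against 12.47 ± 0.32 in fasted control worms (SD, n = 5), a log2 difference of -1.01 ± 0.18. cpg-1, an eggshell proteoglycan gene, was lower by 1.08 ± 0.22. Of 35 germline markers 2 were higher and 3 lower, with summed levels of 14.97 to 15.27 in fed TOR RNAi and 15.20 to 15.57 in fasted control worms. Of 37 DNA replication and cell cycle genes 7 were lower and 1 higher. The shares called were 14.3% and 21.6%, beside 22.3% of all genes. The 7 falls were 0 without probe sets that can bind several transcripts and 1 without fed TOR RNAi array 3. They were 2 or 3 without fed TOR RNAi array 1 or fasted control array 2, 3 or 4.

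Muscle markers were 13 of 31 higher and 0 lower (median log2 difference 0.54), with summed levels of 15.64 to 16.27 in fed TOR RNAi, 15.09 to 15.55 in fasted control and 15.47 to 15.83 in fed control worms. The 13 were 6 without fed TOR RNAi array 3 and 7 without probe sets that can bind several transcripts. atn-1, the alpha-actinin gene, was higher by 1.35 ± 0.18. Neuron markers were 12 of 37 higher and 1 lower (median 0.38, and 6 higher without probe sets that can bind several transcripts), yet their summed levels were lower, 13.75 to 13.81 in fed TOR RNAi against 14.04 to 14.28 in fasted control worms and 13.75 to 14.05 in fed control worms. tbh-1 is on that list and was its 1 fall. Calls covered 41.9% of the muscle and 35.1% of the neuron markers, beside 22.3% of all genes. unc-25, the gene of the enzyme that makes GABA, had log2 levels of 6.81, 7.08 and 6.98 in fed TOR RNAi worms, against 4.56, 4.55, 4.97, 5.04 and 4.74 in fasted control worms, fully apart (2.19 ± 0.26). The part of neuronal RNA in the neuropeptide result was not tested. Sperm markers (0 higher and 2 lower of 32), zygotic embryo markers (0 and 2 of 32) and epidermis markers (1 and 0 of 17) had 6.25%, 6.25% and 5.88% called, beside 22.3% of all genes. Of the zygotic embryo markers 5 were lower without fasted control array 3 or after median centring.

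Fed Rheb RNAi worms were compared as a second RNAi treatment. Their log2 level of rheb-1 was 8.85 ± 0.61 (SD, n = 4), against 9.15 ± 0.25 in fed control worms (SD, n = 5), and the log2 difference TOR minus Rheb RNAi of 0.49 ± 0.27 was not called (adjusted p = 0.33). Fed TOR RNAi and fed Rheb RNAi worms differed in 693 genes (5.64%), 344 higher and 349 lower, and these share the fed TOR RNAi arrays with all counts above. No call was made for ins-7 (12.69 ± 0.37 in fed Rheb RNAi worms, SD, n = 4; log2 difference TOR minus Rheb -0.02 ± 0.33), cpr-4 (0.27 ± 0.19), C33A12.4 (-0.08 ± 0.22) or hsp-12.6 (-0.39 ± 0.37). By contrast tbh-1 (-3.55 ± 0.19, adjusted p = 6.8e-11), F54F7.2 (-3.96 ± 0.23) and C39D10.7 (-3.30 ± 0.29) were lower with TOR RNAi than with Rheb RNAi. acs-2 (2.39 ± 0.53), aqp-1 (2.73 ± 0.58) and sysm-1 (4.47 ± 0.47) were higher. The reached fall of F46F2.3 was larger with TOR RNAi (-1.87 ± 0.21), and so were the falls of col-19 (-2.03 ± 0.30) and col-101 (-1.99 ± 0.29). Of the collagens 11 were lower and 0 higher, of the C-type lectins 21 higher and 2 lower, of the peptidases 9 higher and 1 lower, and of the muscle markers 6 lower and 0 higher with TOR than with Rheb RNAi.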

How the data were processed

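Per the submitters' processing notes, the authors used GCRMA, whose version the sources used here do not give; the deposited intensities are linear. The series design names GeneSpring GX 7.3.1 for image analysis. GCRMA subtracts background and makes array distributions alike, so a shift shared by every transcript is hidden. Log2 was taken of the deposited intensities. The array holds 22625 probe sets. Those that name 1 gene (20766) were kept, and 77 array controls, 887 with several genes and 895 without a gene were left out. Each of 17118 genes was read by its probe set of highest mean, and 12277 genes above log2 4 on at least 3 arrays were tested. Symbols come from the platform annotation, which can be old; looking up 20701 probe sets changed 0 of them.

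With limma 3.58.1 (R 4.3.3), 1 model of the 6 groups was fitted over the 24 arrays with moderated variances, Benjamini-Hochberg adjustment within each of 4 comparisons, and errors and 95% intervals from the fit. The 2 targeted genes also had two-sided exact permutation tests of 3 against 5 arrays. Scripts were tested on simulated data. The number of arrays, and not a count of molecules, limits the precision. Where nothing says that samples came from separate cultures, p-values measure the spread between these samples.

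The comparison, its 48 gene lists and its named genes were chosen with earlier results of these data known. Named were let-363, rheb-1 and 16 further single genes, the 10 largest direct rises and falls without overlap between groups, the 8 largest reached and not reached genes each way, the 6 largest each way of 3 further classes (opposite, TOR RNAi only, beyond fasting), and up to 4 members per list of smallest p, 258 genes in all. Reached means called at 2-fold with fasting and a 95% interval of the direct difference within 2-fold. These classes share arrays, can share genes and are descriptions.

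Replicate numbers did not pair fed TOR RNAi with fasted control arrays (correlations of deviations 0.283, 0.155 and -0.065), but paired fasted with fed control arrays (every correlation above 0.5), as the titles number both groups 1 to 5. Alternatives were 2 variance models, 2 scalings, 2 filters, a floor at log2 4, 2 treatments of probe sets (one leaves out those that can bind several transcripts), fits of the compared groups alone, a block by replicate number and leaving out each array. No sequences or genome coordinates were used here.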

Additional observations from a re-analysis of the deposited data

Results flagged for a closer look

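In the 5 fasted control and the 5 fed control arrays, 1 array stood far from the other 4 in 10 of 180 tests over 90 named genes, and chance gives about 1 in 20. All values are log2 levels. In fasted control worms, sysm-1 was 8.62 on array 3 and 7.19 to 7.42 on the others, cbl-1 was 3.3 on array 2 and 5.12 to 5.50 on the others, cld-9 was 7.05 on array 3 and 6.32 to 6.50 on the others, and pud-3 was 5.67 on array 2 and 7.56 to 7.89 on the others. In fed control worms, hsp-12.3 was 8.0 on array 5 and at most 6.37 on the others, C23G10.11 was 6.16 on array 5 and 7.01 to 7.28 on the others, and F01D5.3 was 10.39 on array 5 and 9.70 to 9.88 on the others. Also in fed control worms, sod-3 was 6.41 on array 1 and 6.17 to 6.23 on the others, nep-14 was 3.97 on array 3 and 2.58 to 2.78 on the others, and cpr-4 was 13.09 on array 4 and 13.57 to 13.73 on the others. The groups of 3 fed TOR RNAi arrays are too small for this test.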

How the results depend on the processing

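Of 220 named genes called between fed TOR RNAi and fasted control worms, 170 kept their call in all 19 alternatives and 0 reversed. Leaving out single arrays gave 1751 to 3024 called genes (1010 to 1710 higher, 741 to 1314 lower) for fed TOR RNAi minus fasted control, with fed TOR RNAi array 3 the one that moved all 3 counts by over 1.5 times. It gave 1717 to 2388 (938 to 1418 higher, 778 to 970 lower) for fasted minus fed control, 2570 to 4350 (1567 to 2591, 1003 to 1759) for fed TOR RNAi minus fed control, and 414 to 675 (147 to 339, 185 to 397) for fed TOR RNAi minus fed Rheb RNAi. Calls with a block by replicate number were 5534 (2906 higher, 2628 lower), 3883 (2345, 1538), 6655 (3723, 2932) and 2933 (1572, 1361) in the same order; for the comparisons with fed TOR RNAi arrays the numbers are shared without pairing the samples, and arrays 2 and 3 of fed TOR RNAi correlated best with fasted control arrays 4 (0.271) and 5 (0.456). A fit of the 2 groups alone gave 307 calls (143 higher, 164 lower) for TOR minus Rheb RNAi. For fed TOR RNAi minus fed control, genes called lower were 2923 after median centring and 1094 without probe sets that can bind several transcripts. The other let-363 probe set fell by 1.95 on the log2 scale. The causes were not tested. With 3 fed TOR RNAi arrays, and added control RNAs apart by up to 0.39, small differences cannot be told from technical ones, and levels under log2 4 have no reliable order.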
